A study of Drosophila melanogaster with 5 samples.

Results

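The cuticle protein genes of Drosophila melanogaster were followed in RNA from the larval central nervous system (CNS) after knockdown of the IP3 receptor (IP3R), the channel that releases Ca2+ from the endoplasmic reticulum. Members were chosen by symbol alone: Cpr followed by a digit, Lcp, Pcp, Ccp84A, Acp65A, Edg, Twdl or Cpap at the start of the name, and in addition l(3)mbn. The rule matched 123 genes, and 42 of them had a row in the authors' edgeR table, out of 9290 such genes with values in all 3 deposited tables. No member matched the Cpap symbol.

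RNA was sequenced from 2 IP3R knockdown samples and 3 control samples, each a pool of about 15 CNS dissected 84 h after egg laying (AEL), in the third instar. By the labels the knockdown genotype was ElavC155GAL4/+; UAS-dsitpr/+; UAS-dicer/+, which drives an RNA hairpin against itpr and Dicer-2 through a pan-neuronal promoter. The control genotype was UAS-dsitpr/+; UAS-dicer/+, so that the controls carried both transgenes and lacked the driver. The study's methods name a different driver, VGN6341GAL4, which marks a subset of glutamatergic neurons, although a figure legend of the study names the elav driver as the labels do, and no samples with the driver alone were analysed here. Whole tissue was measured, and fewer cells of a type and less RNA per cell cannot be told apart.

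The insect cuticle is secreted by the epidermis and also lines the tracheae, the foregut and the hindgut. It is built of chitin fibres held by structural proteins, most of which carry the Rebers and Riddiford motif that binds chitin (the Cpr and Lcp families). The Tweedle (Twdl) proteins form a separate insect family, and a dominant mutation of TwdlD makes larvae short and fat. Many of these genes are transcribed in bursts set by ecdysone at each molt. Neurons and glia are not known as a source of cuticle.

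The deposited tables give 1 value per group: FPKM (fragments scaled by transcript length and by the number of mapped fragments) from CuffDiff, and the mean of counts divided by size factors (normalized count) from DESeq. The group means are printed to 10 significant digits, and whole reads of the single libraries could be worked back from them. Both knockdown libraries, called a and b here, were recovered for 100% of rows and summed to 13468896 and 10358281 reads. Control libraries a, b and c were recovered as a single solution for 16 of the 42 members. The other 26 had 2 to 5 whole-number solutions, so that their control libraries are known only as ranges. For some of these the lowest or highest value over all solutions is given. Library letters cannot be tied to the replicate numbers of the labels. Libraries in groups of 2 and 3 allow 10 splits and a one-sided exact permutation p of 0.1 at the least, so that no test was made and each difference is described against the spread of the libraries.

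The libraries of a group differed from each other in the genes of several tissues. Knockdown library b was low in fat body and hemocyte markers, with summed normalized counts of 0.268 and 0.283 times those of library a, whereas its neuronal and glial markers stood at 1.19 and 1.17 times. Control library c was low in salivary gland genes: Sgs7 had normalized counts of 265, 241 and 10.9 in control libraries a, b and c. It was lower in cuticle protein genes too. The ratio of control library c to a had a median of 0.638 over the members with 1 solution, beside 0.922 over all genes with 1 solution. It was above 1 for 4 of these members. The targeted gene, Itp-r83A, had 15.0 FPKM in knockdown CNS and 24.7 FPKM in control CNS. Dcr-2 had 96.7 FPKM in knockdown CNS and 31.3 FPKM in control CNS.

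Most of the 42 cuticle protein genes with a row were lower in the knockdown. A gene was counted as lower when its knockdown to control ratio was 0.5 or less in both FPKM and normalized count, and as higher when both ratios were 2 or more. By this rule 26 of the 42 members were lower, against 3.64% of all genes. The higher count was 2 of 42, against 0.366% of all genes, and 14 members were neither. At a ratio of 0.25 or less 23 members were still counted, against 1.65% of all genes. The FPKM of the 42 members summed to 963 in the knockdown and 3606 in the control, or 26.7% of the control. Their median log2 FPKM ratio was -2.17, beside 0.02 for all genes. The members were thus a small part of the CNS transcriptome in both groups, with 0.171% of the summed FPKM in the knockdown and 0.632% in the control.

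The edgeR table holds only genes above a minimum level. All 14 members with under 10 CPM (reads scaled to the library total) in both knockdown libraries were counted as lower, so that their rows rest on the control level and these genes had to differ. Of the 28 other members with a row, 12 were counted as lower. These 12 reached 10 CPM in knockdown library a alone, and their highest number in library b was 91 reads, at Cpr11A. Cpr100A also reached 10 CPM in library a, with 195 reads, and has no row. The rows of the 12 may thus rest on the control level too. The count of 26 is therefore a description of these 42 genes and does not extend to the 123: of the 81 members without a row 18 were lower and 18 higher by the same limits. Some of these, such as Cpr23B and TwdlQ, had at most 1 read in any library. The share over all genes without a row was not counted.

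**Figure D1:**
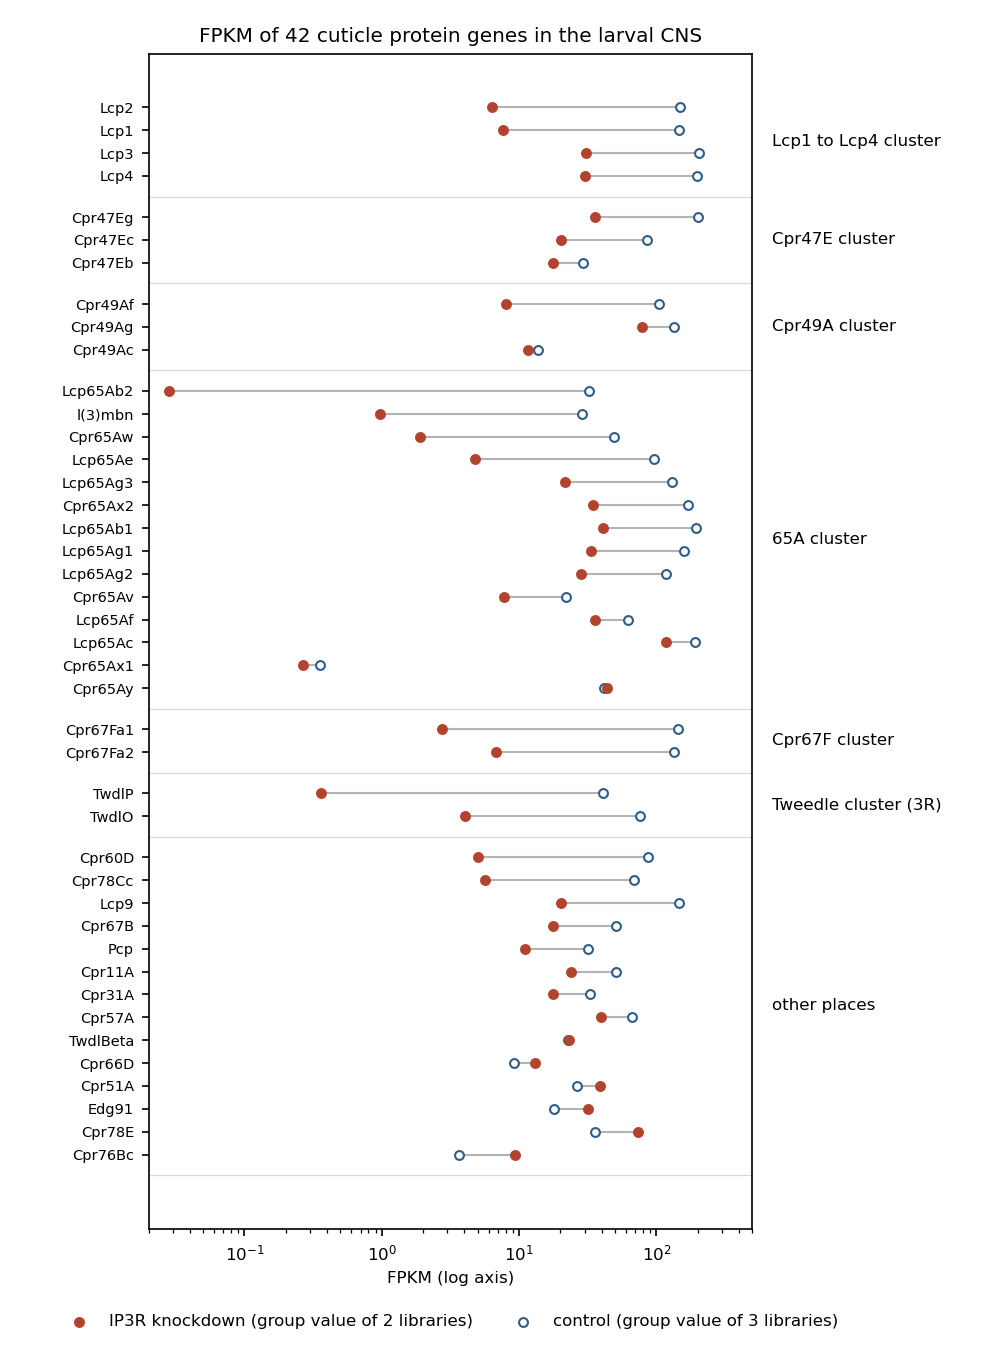
FPKM (log axis) of the 42 cuticle protein genes with an edgeR row, grouped by genomic cluster, with the knockdown group value as filled and the control group value as open points. Filled points lie left of the open ones for 35 genes and right of them for 7, and the widest gaps are in the Lcp, 65A, Cpr67F and Tweedle clusters.

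The counts by family are given for genes with a row and stand against the 3.64% of all genes that were lower. They carry the same limit of rows that rest on the control level. The Lcp family, named for larval cuticle proteins, had 11 lower genes of 13 and a median log2 FPKM ratio of -2.70. Of the 23 Cpr genes 12 were lower, and the median was -1.10. Of the 3 Twdl genes 2 were lower, with a median of -4.23. These 2, TwdlP and TwdlO, were under 10 CPM in both knockdown libraries, so that they had to differ. Twdl genes without a row went both ways. TwdlW had 2.80 FPKM in the knockdown and 0.721 FPKM in the control, and TwdlN had 0.226 FPKM in the knockdown and 1.34 FPKM in the control. The remaining members with a row were Pcp, Edg91 and l(3)mbn, 1 for each symbol. Across the 42 genes the Spearman correlation of control FPKM with the FPKM ratio was -0.48, given as a description of genes that share the same libraries. Control FPKM is also the denominator of the ratio, and a row depends on the level. A negative value is thus partly built in, and no relation is read from it.

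Cuticle genes lie in tandem arrays, and 97 of the 123 members fell into 18 clusters when neighbours within 50 kb were joined (dm6 coordinates of the CuffDiff loci, 1-based). Of the 42 members with a row, 31 lay in a cluster.

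The cluster at 2R:8430115-8438495 holds Lcp1, Lcp2, Lcp3 and Lcp4, which encode the abundant cuticle proteins of the last larval stage, and all 4 were lower. Lcp2 had 6.36 FPKM in the knockdown and 150 FPKM in the control, with mean normalized counts of 30.1 (knockdown) and 689 (control). Lcp1 had 7.63 FPKM in the knockdown and 146 FPKM in the control, with mean normalized counts of 33.7 (knockdown) and 631 (control). The neighbours transcribed from the opposite strand had higher ratios. Lcp3 had 31.0 FPKM in the knockdown and 204 FPKM in the control, the highest control level of any member, with mean normalized counts of 121 (knockdown) and 812 (control). Lcp4 had 30.4 FPKM in the knockdown and 198 FPKM in the control, with mean normalized counts of 126 (knockdown) and 844 (control). The 4 genes together had 75.4 FPKM in the knockdown and 697 FPKM in the control, which was 19.3% of the control sum of all members.

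Single libraries of this cluster were spread. Lcp1 had 55.7 and 11.7 normalized counts in knockdown libraries a and b, and at least 259 in every control library under either solution, so that the groups did not overlap. Lcp4 had 226 and 25.8 normalized counts in knockdown libraries a and b, and its 5 control solutions ran from 1.21 to 2111, which leaves overlap undecided. Lcp2 and Lcp3 were undecided in the same way.

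The largest array, at 3L:6123934-6161589, holds 19 members and carried 35.9% of the control FPKM of the 42 genes. Of its 14 members with a row 10 were lower and none was higher, and the summed FPKM of the 14 was 371 in the knockdown and 1295 in the control. Apart from Lcp65Ab2, whose FPKM is uncertain, the lowest FPKM ratios were at l(3)mbn, Cpr65Aw and Lcp65Ae. l(3)mbn, the gene of the lethal(3)malignant blood neoplasm locus, had 0.963 FPKM in the knockdown and 28.7 FPKM in the control. Its mean normalized counts were 25.5 (knockdown) and 778 (control). Knockdown libraries a and b had 32.2 and 18.8, and its control solutions ran from 27.8 to 1345, which leaves overlap undecided. An antisense RNA gene, asRNA:CR46005, overlaps l(3)mbn and Lcp65Ag3. Lcp65Ae had 4.78 FPKM in the knockdown and 96.7 FPKM in the control, with mean normalized counts of 15.6 (knockdown) and 341 (control).

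Cpr65Aw showed how a group mean can hide a library. It had 1.91 FPKM in the knockdown and 49.1 FPKM in the control, with mean normalized counts of 5.83 (knockdown) and 163 (control). The libraries read 6.96 and 4.69 in the knockdown (a, b) and 235, 239 and 15.7 in the control (a, b, c). Both knockdown libraries were below every control library, yet control library c stood nearer to the knockdown than to the other two controls. The 4 salivary gland genes with a row and a single solution (Sgs4, Sgs7, Sgs8 and Eig71Ee) were also low in control library c. They had 0 to 25.4 there and 135 to 265 in control libraries a and b. For Sgs8 control library c (4.84) was below knockdown libraries a and b (17.4 and 43.4). Eig71Ee was at 0 in control library c and in both knockdown libraries. The part of other tissues in the result was not tested.

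The 3 Lcp65Ag copies were all lower. Lcp65Ag1 had 33.5 FPKM in the knockdown and 160 FPKM in the control, Lcp65Ag2 had 28.4 FPKM in the knockdown and 117 FPKM in the control, and Lcp65Ag3 had 21.6 FPKM in the knockdown and 130 FPKM in the control. They are close copies, and reads may have been shared among them. The same limit is stronger for Lcp65Ab1 and Lcp65Ab2, which share a CuffDiff locus and identical normalized counts of 105 in the knockdown and 568 in the control. Their FPKM were split as 40.5 in the knockdown and 195 in the control for Lcp65Ab1, and 0.0283 in the knockdown and 32.2 in the control for Lcp65Ab2. Cpr65Ax1 and Cpr65Ax2 share a locus in the same manner. Cpr65Ax2 had 34.3 FPKM in the knockdown and 171 FPKM in the control, whereas Cpr65Ax1 had 0.268 FPKM in the knockdown and 0.355 FPKM in the control beside mean normalized counts of 81.9 (knockdown) and 445 (control). The FPKM ratio of a single copy is uncertain for both pairs.

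Members of the array that were not counted as lower lay among those that were. Lcp65Ac, the most abundant member in the knockdown, had 118 FPKM there and 191 FPKM in the control, with mean normalized counts of 472 (knockdown) and 766 (control). Lcp65Af had 35.6 FPKM in the knockdown and 62.1 FPKM in the control, with 183 and 117 normalized counts in knockdown libraries a and b and 238, 208 and 333 in control libraries a, b and c. The Lcp65Af groups did not overlap. Cpr65Ay, next to the last gene of the array, had 43.8 FPKM in the knockdown and 41.3 FPKM in the control, with mean normalized counts of 155 (knockdown) and 150 (control). That near-equal mean came from 298 and 11.7 in knockdown libraries a and b, beside 122, 174 and 155 in control libraries a, b and c, so that the knockdown libraries lay on either side of all controls. Cpr65Ax1, described above, was the other uncounted member. Cpr65Av, in contrast, was counted as lower, with 7.79 FPKM in the knockdown and 21.9 FPKM in the control, although its libraries overlapped: 88.8 and 3.52 in knockdown libraries a and b, against 165, 152 and 60.5 in control libraries a, b and c.

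The pair Cpr67Fa1 and Cpr67Fa2 at 3L:10889990-10894743 were both strongly reduced. Cpr67Fa1 had 2.75 FPKM in the knockdown and 144 FPKM in the control, with mean normalized counts of 12.2 (knockdown) and 652 (control). Cpr67Fa2 had 6.82 FPKM in the knockdown and 135 FPKM in the control, with mean normalized counts of 31.5 (knockdown) and 654 (control). Knockdown libraries a and b had 17.4 and 7.04 for Cpr67Fa1 and 34.8 and 28.2 for Cpr67Fa2, below the lowest control value under any solution, 95.6 and 299 for these genes. The third gene of the cluster, Cpr67Fb, has no edgeR row and did not share the reduction: it had 26.03 FPKM in the knockdown and 22.5 FPKM in the control, from 102 and 112 reads in knockdown libraries a and b and 108, 92 and 68 reads in control libraries a, b and c.

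Of the 12 Tweedle genes at 3R:26619118-26641054 only TwdlP and TwdlO had a row. TwdlP had 0.362 FPKM in the knockdown and 40.6 FPKM in the control, with mean normalized counts of 2.33 (knockdown) and 261 (control). The knockdown value rests on 4 reads in library a and 1 read in library b, and every control library had at least 94.4 normalized counts under either solution. TwdlO had 4.02 FPKM in the knockdown and 75.6 FPKM in the control, with mean normalized counts of 28.2 (knockdown) and 534 (control), and knockdown libraries a and b had 54.0 and 2.35. The groups of both genes did not overlap. TwdlBeta, on 2R and outside the cluster, had 23.2 FPKM in the knockdown and 22.6 FPKM in the control, with mean normalized counts of 139 (knockdown) and 135 (control). Its knockdown libraries a and b (163 and 115) lay on either side of the control libraries a, b and c (143, 127 and 134).

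The 47E and 49A clusters on 2R were mixed. At 2R:11250368-11278445 Cpr47Eg had 35.5 FPKM in the knockdown and 199 FPKM in the control, with mean normalized counts of 103 (knockdown) and 545 (control). Cpr47Ec had 20.2 FPKM in the knockdown and 86.1 FPKM in the control, and both were lower. Cpr47Eb had 17.6 FPKM in the knockdown and 29.3 FPKM in the control and was not counted. Its libraries read 235 and 15.3 in knockdown a and b, against 186, 169 and 270 in control a, b and c, so that only library b was low.

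At 2R:12376626-12415170 Cpr49Af was lower, with 8.09 FPKM in the knockdown and 105 FPKM in the control, and its libraries did not overlap. Cpr49Ag, the next gene along, had 79.0 FPKM in the knockdown and 135 FPKM in the control, from 805 and 108 normalized counts in knockdown libraries a and b. Cpr49Ac had 11.6 FPKM in the knockdown and 13.7 FPKM in the control, with mean normalized counts of 183 (knockdown) and 215 (control). Adjacent members of an array thus differed in ratio, as in 65A and 67F.

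Further lower members lay alone or were the only gene with a row in their cluster. Cpr60D had 4.995 FPKM in the knockdown and 87.4 FPKM in the control, with 29.6 and 11.7 normalized counts in knockdown libraries a and b and 378, 364 and 211 in control libraries a, b and c. Its groups were wide apart. Cpr78Cc had 5.62 FPKM in the knockdown and 69.1 FPKM in the control, with 35.7 and 17.6 in knockdown libraries a and b and 416, 357 and 72.6 in control libraries a, b and c. Lcp9 had 20.1 FPKM in the knockdown and 146 FPKM in the control, and here the groups overlapped: 97.5 and 8.21 in knockdown libraries a and b, against 499, 497 and 87.1 in control libraries a, b and c. An antisense gene, asRNA:CR44067, overlaps Lcp9. Cpr67B had 17.5 FPKM in the knockdown and 51.0 FPKM in the control. Cpr11A, on the X chromosome, had 23.8 FPKM in the knockdown and 51.0 FPKM in the control, from 581 and 107 normalized counts in knockdown libraries a and b.

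Other members with a row fell short of the limit. Pcp, the pupal cuticle protein gene nested in Gart, had 11.1 FPKM in the knockdown and 31.7 FPKM in the control, whereas its mean normalized counts were 160 (knockdown) and 288 (control), a ratio of 0.555. Its knockdown libraries were both at 160 and the lowest control library was at 163, a narrow gap. Cpr31A had 17.8 FPKM in the knockdown and 32.6 FPKM in the control. Cpr57A, which overlaps Obp57d, had 39.8 FPKM in the knockdown and 66.3 FPKM in the control.

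Only Cpr76Bc and Cpr78E passed the limit for higher genes. Cpr76Bc had 9.41 FPKM in the knockdown and 3.65 FPKM in the control, with mean normalized counts of 149 (knockdown) and 56.5 (control). The libraries read 150 and 149 in knockdown a and b, and 62.4, 41.6 and 65.4 in control a, b and c. Cpr78E had 73.6 FPKM in the knockdown and 35.8 FPKM in the control, with mean normalized counts of 257 (knockdown) and 124 (control), and read 293 and 221 in knockdown a and b and 162, 146 and 65.4 in control a, b and c. Both knockdown libraries were above all 3 controls for each gene. The filter bears on these genes too: Cpr76Bc had 172 and 127 reads in knockdown libraries a and b but 70, 46 and 54 reads in control libraries a, b and c, and its row may rest on the knockdown level.

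Smaller differences in the same direction were seen at 3 more genes. Edg91, named as an ecdysone-dependent gene, had 32.0 FPKM in the knockdown and 18.01 FPKM in the control, with mean normalized counts of 154 (knockdown) and 86.0 (control). Cpr66D had 13.1 FPKM in the knockdown and 9.18 FPKM in the control, with mean normalized counts of 150 (knockdown) and 104 (control). Both had groups that did not overlap. Edg91 had 212 and 106 reads in knockdown libraries a and b but 118, 86 and 62 reads in control libraries a, b and c. Cpr66D had 193 and 112 reads in the knockdown and 137, 120 and 68 in the control, in the same order. The rows of Edg91 and Cpr66D may thus rest on the knockdown level, as for Cpr76Bc. Cpr51A, which overlaps CG30197 on the opposite strand, had 38.5 FPKM in the knockdown and 26.4 FPKM in the control, with mean normalized counts of 222 (knockdown) and 150 (control), and its knockdown library b (141) lay within the control libraries (127 to 165).

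Over all 42 members the libraries did not overlap under every control solution for 16 lower in the knockdown, against 7.53% of all genes with a control mean of up to 900. Of these 16, 10 are among the 14 genes whose rows rest on the control level, and the rows of others may do so too. The count is thus a description as well. The corresponding number higher in the knockdown was 4, against 8.52%. Of these 4, Cpr76Bc, Edg91 and Cpr66D have rows that may rest on the knockdown level. The 16 were 14 of the 26 counted as lower, and in addition Pcp and Lcp65Af. The remaining 22 members overlapped or were undecided.

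**Figure D2:**
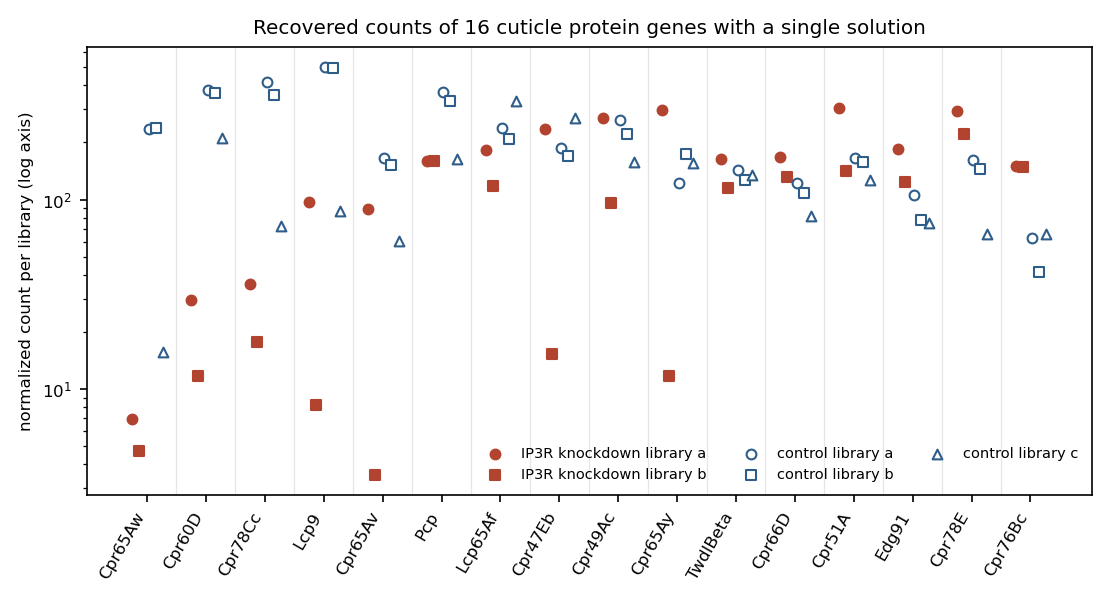
Normalized count (log axis) of each library for the 16 cuticle protein genes with a single control solution, ordered by ratio, with knockdown libraries as filled and control libraries as open symbols. Knockdown library b (filled squares) is far below library a at Lcp9, Cpr65Av, Cpr47Eb and Cpr65Ay, and control library c (open triangles) is far below the other controls at Cpr65Aw, Cpr78Cc and Lcp9.

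The knockdown libraries differed strongly from each other in these genes. The ratio of library b to library a had a median of 0.372 over the 42 members, beside 1.01 over all genes, whose 5th and 95th percentiles were 0.548 and 1.24. It was 0.5 or less for 28 of the 42 members, against 4.41% of all genes, and at least 1 only for Cpr31A, at 2.45. The lowest values were 0.0394 at Cpr65Ay and 0.0396 at Cpr65Av. Members that were not counted as lower had a median of 0.610, and the lower ones 0.246. Summed over members, the normalized count was 7771 in knockdown library a and 2939 in knockdown library b, beside a control mean of 18193.

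Each knockdown library was therefore set against the control mean on its own, in normalized counts. Library a alone was at 0.5 or less for 25 of the 42 members, against 3.11% of all genes, and held 42.7% of the control sum. Library b alone was at 0.5 or less for 34, against 6.25% of all genes, and held 16.2% of the control sum. The same 42 genes are counted here, and the rows of at least 14 of them rest on the control level. Both counts are therefore descriptions of these genes too. Both libraries were at 0.5 or less for 24 members. At 6 members library a was above the control mean and library b below it, and at 4 both were above. The shares over all genes were not counted for these 3 patterns, so that the numbers only describe the members.

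**Figure D3:**
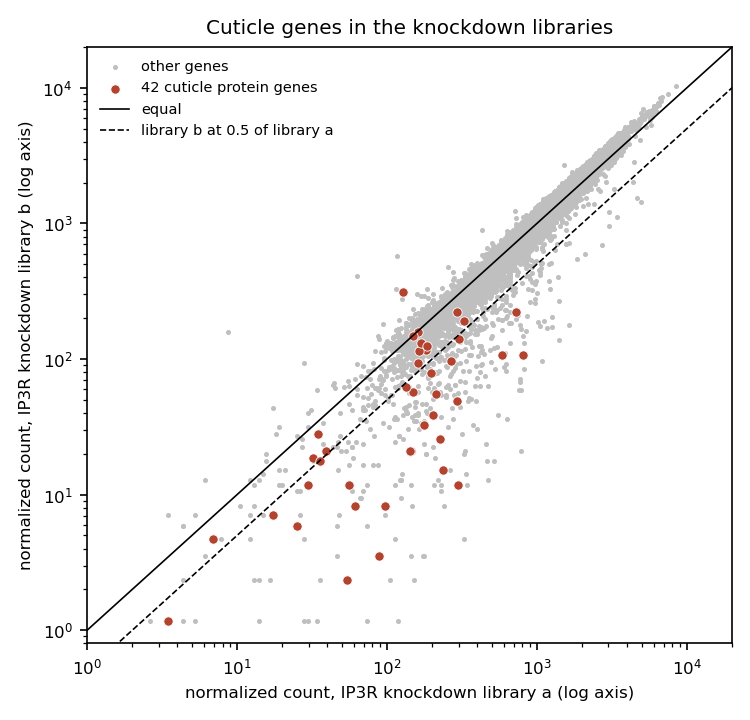
Normalized count in knockdown library b against knockdown library a (both log axes) for the 42 cuticle protein genes and all other genes with an edgeR row and at least 1 read in each library. The cloud of genes follows the line of equality, and 28 of the 42 cuticle genes lie on or below the dashed line at 0.5.

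Members without a row were low. Of these 81 genes, 41 were under 1 FPKM in both groups and 3 of those were at 0 in both. The highest after Cpr67Fb were TwdlG, with 5.58 FPKM in the knockdown and 9.79 FPKM in the control, and Cpr49Ad, with 2.58 FPKM in the knockdown and 9.75 FPKM in the control. Cpr65Ec had 7.53 FPKM in the knockdown and 5.41 FPKM in the control, and Cpr78Ca had 1.90 FPKM in the knockdown and 7.52 FPKM in the control. Neither the 7 Ccp84A genes nor Acp65Aa, an adult cuticle protein gene, had a row.

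Enzymes and matrix proteins that act with the cuticle proteins were mostly within the limits. Of 15 genes for chitin synthesis and assembly with a row, 2 were lower and none higher. These were obst-A, with 14.1 FPKM in the knockdown and 42.8 FPKM in the control, and obst-E, with 58.3 FPKM in the knockdown and 139 FPKM in the control, both of which encode secreted chitin-binding proteins. Of 10 chitin turnover genes and 8 tanning genes none passed the limits, with median log2 ratios of -0.03 and 0.01. Of 6 genes of the epidermal apical matrix only zye, which encodes a zona pellucida domain protein, was lower, with 1.72 FPKM in the knockdown and 4.25 FPKM in the control. Its knockdown libraries a and b had 262 and 15.3 normalized counts, a ratio of b to a of 0.0582. Of 12 regulators only Hr46, the ecdysone-induced nuclear receptor, was lower, with 3.16 FPKM in the knockdown and 6.61 FPKM in the control, and at 144 and 161 its knockdown libraries were close. The median log2 ratio was -0.26 for chitin synthesis and assembly, -0.27 for the apical matrix and -0.45 for regulators, beside 0.02 for all genes. The summed count of the regulators was 74.0% and 76.5% of the control mean in knockdown libraries a and b.

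Markers of tissues that can remain on a dissected CNS were followed beside the cuticle proteins, and their counts stand against the 3.64% of all genes that were lower. All 8 salivary gland genes with a row were lower. In the knockdown libraries they had at most 43.4 normalized counts (Sgs8, library b). Their rows thus rest on the control level, and these genes had to differ. The summed FPKM of the 11 salivary gland genes listed was 15.6 in the knockdown and 788 in the control. Among them ng1 had 0.235 FPKM in the knockdown and 189 FPKM in the control, ng2 had 0.110 FPKM in the knockdown and 186 FPKM in the control, and ng3 had 0.641 FPKM in the knockdown and 207 FPKM in the control. Sgs3 had 0.484 FPKM in the knockdown and 29.5 FPKM in the control, Sgs7 had 2.21 FPKM in the knockdown and 106 FPKM in the control, and Sgs4 had 0.206 FPKM in the knockdown and 9.62 FPKM in the control. Eig71Ee and Sgs5 were listed at 0 in the knockdown, beside 11.02 and 3.06 FPKM in the control. In contrast to the cuticle genes, these were near 0 in both knockdown libraries, with summed normalized counts of 53.1 in a and 71.6 in b beside a control mean of 3525.

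All 5 fat body genes with a row were lower. Lsp2 had 16.8 FPKM in the knockdown and 62.7 FPKM in the control, and Lsp1alpha, which lies within the span of the X cluster of Cpr11A and Cpr11B, had 47.2 FPKM in the knockdown and 103 FPKM in the control. Lsp1beta, Lsp1gamma and Fbp2 were the others, at ratios of 0.431, 0.472 and 0.409. Over the 6 fat body genes in the tables the summed count was 8846 in knockdown library a and 2371 in knockdown library b, beside a control mean of 13101. Of 6 hemocyte genes Hml and srp were lower, at FPKM ratios of 0.394 and 0.402, and the sum was 10565 in library a and 2993 in library b beside 14415. Of 12 muscle genes Mhc, sls, bt and Prm were lower, at ratios of 0.354, 0.372, 0.351 and 0.336, and the sum was 22583 in library a and 12546 in library b beside 32691. No marker of trachea, a tissue that itself makes cuticle, or of imaginal discs passed the limits (0 of 6 and 0 of 8). Among CNS markers brp alone was lower, at a ratio of 0.495, and glial and neuroblast markers were not. The summed count of the 5 neuronal markers was still below the control mean, at 67.2% in library a and 80.2% in library b. Glial markers stood at 93.0% and 109%, and neuroblast markers at 99.5% and 121%. The part of these tissues in the cuticle protein result was not tested.

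**Figure D4:**
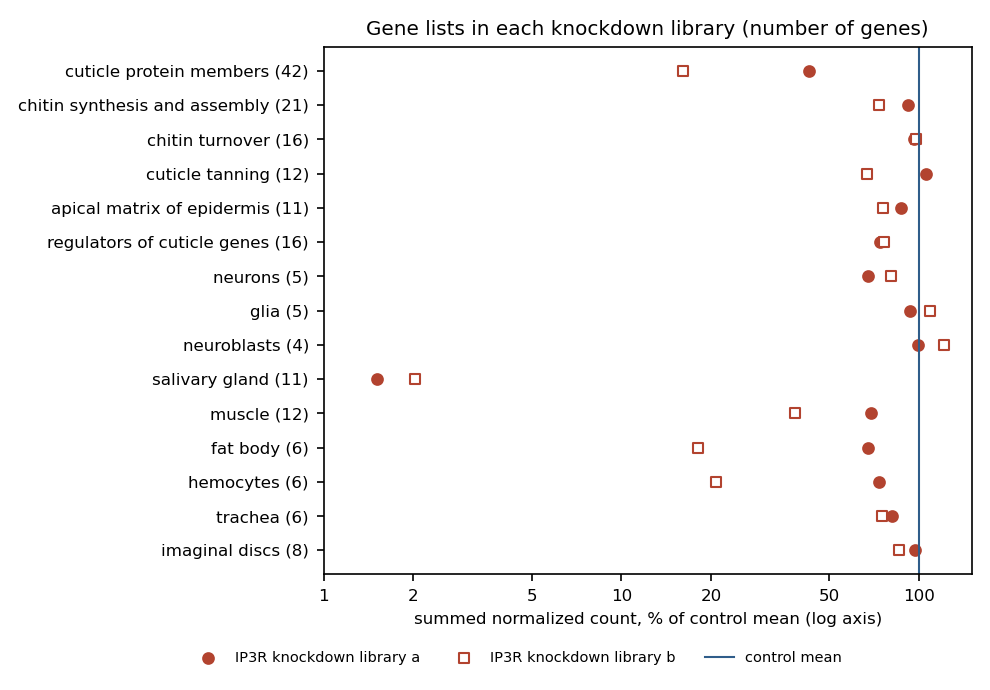
Summed normalized count of each gene list in knockdown library a (filled circles) and library b (open squares) as a percentage of the control mean (log axis), with the number of genes in parentheses. Cuticle proteins stand at 42.7% and 16.2%, fat body at 67.5% and 18.1%, hemocytes at 73.3% and 20.8%, and salivary gland at 1.51% and 2.03%. Neurons stand at 67.2% and 80.2%, and glia at 93.0% and 109%.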

How the data were processed

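The authors mapped reads with TopHat2 2.0.11 to dm6, then removed duplicates, and compared groups with Cuffdiff 2.2.0, DESeq and edgeR. Of the values the authors deposited, FPKM (CuffDiff group values) and mean normalized counts, a signal scaled by the authors' DESeq size factors, were used; the log2 fold changes, p-values and adjusted p-values that the authors deposited are their own comparisons and were not used. The edgeR table the authors deposited, whose levels are log2 averages, served only to say which genes have a row. These tables have 0 columns that belong to a single library.

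A group mean of whole reads divided by size factors is a sum of whole multiples of 1 step per library. The steps were found from low values, and reads were then solved for each row with Python 3.11.15, NumPy 2.4.6 and pandas 2.3.3, after testing on simulated data. Control rows with a mean of up to 900 were solved, and 75.64% had 1 solution. Counting by strand is not given in the sources used here.

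Every member with a row in the authors' edgeR table is named. The members with the 10 lowest and 10 highest FPKM ratios and the 5 highest FPKM also have normalized counts, and the 5 highest without a row are named. Of other lists, genes past the limits are named, up to 6. Members and lists were chosen with earlier results of these data known. Gene positions came from Ensembl release 115. Alternatives were other limits, single tables, minimum levels, pseudocounts, centring, shared loci left out and single knockdown libraries. How removal of duplicates affects short, abundant transcripts was not tested.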

Additional observations from a re-analysis of the deposited data

How the results depend on the processing

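The count of lower members lay between 23 and 33 under other limits, tables, minimum levels and centring, against 26. It was 25 and 34 with knockdown library b or a left out, and 38 with no edgeR row required. That last setting takes all members with values above 0 in both groups and tables, a larger set than the members with a row. Its counts therefore cannot be set against the 26 as a share of members. The count of higher members, 2, was 5 at the looser limit, 0 at a limit of 4 and 16 with no edgeR row required, and ran from 1 to 4 with a knockdown library left out. The median log2 ratio of -2.17 ran from -3.73 to -1.66 with a knockdown library left out; the single-library alternatives were chosen after seeing the data. The cause of these shifts was not tested, apart from the limits themselves. No paired analysis was possible because the deposited columns hold group values and carry no replicate numbers. Protein and promoter sequence features were not run. With 2 knockdown libraries that differ in these genes, group ratios carry no usable error, and control libraries are known only as ranges for 26 members.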

Other observations

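Members without an edgeR row included genes read almost only in some libraries; they were picked after their values were seen. Lcp65Aa had 0 reads in both knockdown libraries and 36, 40 and 3 reads in control libraries a, b and c. Acp65Aa had 0 reads in both knockdown libraries and 46, 23 and 0 reads in control libraries a, b and c. In these genes control library c was low, whereas it was the high one in Ccp84Ad, Ccp84Ab and Ccp84Aa. Ccp84Ad had 2 and 4 reads in knockdown libraries a and b, and 2, 4 and 72 reads in control libraries a, b and c. Ccp84Ab had 19 and 27 reads in knockdown libraries a and b, and 10, 7 and 89 reads in control libraries a, b and c. Ccp84Aa had 30 and 18 reads in knockdown libraries a and b, and 10, 16 and 62 reads in control libraries a, b and c. Ccp84Ag had 72 and 5 reads in knockdown libraries a and b, and 64, 33 and 21 reads in control libraries a, b and c, and the other Ccp84A genes had at most 4 reads in any library. The lower group FPKM of Ccp84Ad, 0.528 in the knockdown and 4.89 in the control, thus rests on control library c.

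Cpr100A and Cpr50Cb had their highest read number in knockdown library a and their lowest in knockdown library b, before scaling by size factors. Cpr100A had 195 and 11 reads in knockdown libraries a and b, and 95, 86 and 57 reads in control libraries a, b and c. Cpr50Cb had 106 and 19 reads in knockdown libraries a and b, and 24, 24 and 29 reads in control libraries a, b and c. In normalized counts Cpr50Cb was not lowest in knockdown library b, with 22.3 there and 21.4 and 21.7 in control libraries a and b.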
